A study of Mus musculus with 6 samples.

Results

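The probe sets of the cytosolic ribosomal proteins were examined in adrenal glands of a hypertensive and a hypotensive mouse strain. They were chosen by name, as all probe sets whose only gene symbol is that of a protein of the large subunit (Rpl and a number, Rplp0, Rplp1 or Rplp2) or of the small subunit (Rps and a number, or Rpsa). The rule found 34 of the 8251 genes that a single-symbol probe set names. They had 48 of 12422 probe sets, 22 for 17 genes of the large subunit and 26 for 17 genes of the small subunit. A further 39 probe sets carry several symbols that include such a gene, and were not members. No probe set with a single symbol names Rplp1 or Rplp2.

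The groups were BPH, the hypertensive strain, and BPL, the hypotensive strain, both from the selection lines of Schlager. All were male mice of 12 weeks with no treatment named, and 3 arrays were made per strain from total adrenal RNA. Whether each array stands for a single animal is not stated in the labels, so p-values reflect only the spread between these arrays, some of which may be technical. The 2 strains differ in their whole genetic background, and no parental or normotensive strain is part of the comparison.

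A ribosome joins a small subunit, which reads the messenger RNA, to a large subunit, which forms the peptide bond. Each subunit holds ribosomal RNA and a fixed set of proteins, most of them present once, so cells make these proteins in matched amounts. Their messenger RNAs begin with a cytosine followed by a run of pyrimidines, the 5′ terminal oligopyrimidine or TOP motif, through which the growth kinase mTOR and the RNA-binding protein Larp1 set how much of each is translated. In the adrenal gland, as in other secretory tissues, ribosomes supply the enzymes and peptides that the gland makes.

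The start sites of some members are shown because this motif is the sequence feature the genes are known to share. RefSeq windows of assembly GRCm38.p6 were found for 27 of the 34 member genes, in 36 windows. Each line gives 30 bases, 15 on each side of the annotated start, 5′ to 3′ on the strand of the gene. Capitals mark a C within 5 bases of the start and the C and T bases that follow it, where at least 4 follow.
Rps19, first start (chr7:24884577-24884606, plus strand): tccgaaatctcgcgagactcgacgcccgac
Rps7 (chr12:28635939-28635968, minus strand): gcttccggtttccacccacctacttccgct
Rpl13a (chr7:45128731-45128760, minus strand): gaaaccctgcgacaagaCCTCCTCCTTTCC
Rps10 (chr17:27635230-27635259, minus strand): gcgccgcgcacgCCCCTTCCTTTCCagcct
Rps18 (chr17:33955651-33955680, minus strand): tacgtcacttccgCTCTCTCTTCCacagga
Rpl7a (chr2:26910792-26910821, plus strand): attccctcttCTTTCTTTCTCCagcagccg
Rps27 (chr3:90213634-90213663, minus strand): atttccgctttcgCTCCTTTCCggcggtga
Rps19, Rps7 and Rpl13a are shown for having the largest strain differences among members. The other 4, with smaller differences, were picked as examples of the pyrimidine run. Of 21 tested member genes with a window, 7 had the run, and Rpl6, Rplp0 and Rps4x, also with smaller differences, had none. Such a run was found in 12 of 36 member windows (33.3%) and in 6027 of all 32851 windows (18.3%). It was in none of the 3 RefSeq windows of Rps19 and not in that of Rps7. The motif CCGGAAGT, on either strand of the 300 bases from 250 before to 50 after the start, was in 5 of 36 member windows (13.9%) and in 3.89% of all windows. The motif ATGGCGGC was in 2 of 36 and in 2.24%. CCGGAAGT is the core bound by factors of the ETS family and ATGGCGGC resembles the site of Yy1. A match is a description of the letters only, and an annotated start can lie some bases from the start used in a tissue.

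Of the 48 probe sets, 30 for 25 genes were bright enough to be tested, 14 for the large and 16 for the small subunit. A probe set was tested if its mean log2 signal over the 6 arrays was in the upper 60% of all probe sets. The members just inside were a Rps24 and a Rps4l probe set, at mean log2 signals of 9.79 and 9.88, and those just outside were a Rps28 and a Rpl19 probe set, at 9.65 and 9.59, with the limit at 9.68. The 18 probe sets left out had signals from 4.37 to 1459. They included every probe set of 9 genes, which were Rpl32, Rpl35a, Rpl38, Rpl39, Rpl39l, Rps14, Rps15, Rps20 and Rps27l. These genes are not without messenger RNA for that reason, since Rps4x and Rpl19 each have a bright probe set beside dim signals on others. Differences are log2 of BPH over BPL, computed from log2(signal + 203), where 203 is a signal added to every value, and they understate the change of dim probe sets. The number of arrays limits the precision.

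BPL replicates 1 and 2 stood apart by their skeletal muscle signal, while the summed markers of cortex and medulla were high on all arrays, although 4 of 18 and 3 of 15 of these probe sets were too dim to be tested. The summed signal of 40 skeletal muscle probe sets was 282819, 674666 and 64563 in BPL replicates 1, 2 and 3 and 31834 to 36572 in BPH, and 12 of 29 tested were called lower in BPH. That of 16 brown and white fat probe sets ran from 357422 to 378302 in BPL and from 303367 to 423146 in BPH. Of the 14 tested, 4 had a positive log2 difference, with a median of -0.20, and 1 was called, higher. The 18 cortex probe sets summed to 600917, 742940 and 781826 in BPL and to 768479 to 892028 in BPH (2 of 14 called, higher), and the 15 medulla probe sets to 182724, 225343 and 297962 and to 331978 to 438720 (4 of 12 called, higher). Leukocyte sums over 42 probe sets ran from 24259 to 26086 in BPL and from 24432 to 26475 in BPH. Only 11 of the 42 were bright enough to be tested, and 0 were called by limma. Endothelial and smooth muscle sums ran from 37829 to 48885 and from 54435 to 61911 (1 of 15 called, higher). Red cell sums over 6 probe sets, 3 of them tested, ran from 70687 to 114647 and from 95371 to 123444 (0 called by limma). No listed marker was at 0. In bulk tissue, fewer cells of a type and less RNA per cell cannot be told apart.

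Rps19 was the only member gene that passed the test. Its protein sits on the head of the small subunit and is needed for the maturation of that subunit's RNA, and mutations of the human gene cause Diamond-Blackfan anaemia. Its signal was 12296, 12890 and 11634 in BPL replicates 1, 2 and 3 and 29925, 29565 and 25437 in BPH replicates 1, 2 and 3. The lowest BPH array lay far above the highest BPL array, and the groups did not overlap. Mean signals were 12273 ± 628 for BPL and 28309 ± 2493 for BPH (SD over 3 arrays). On the log2 scale BPH stood higher by 1.19 ± 0.15 (SE), which is 2.28-fold, with limma adjusted p = 0.0040 after Benjamini-Hochberg adjustment over 7453 probe sets. Of 30 tested members 1 was called, where 4.11% of all tested probe sets were called, 3.18% higher and 0.926% lower. The share of members called is near that background. At an unadjusted p under 0.05, 4 members were higher and 0 lower by limma, against 14.2% and 6.40% of all tested probe sets.

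**Figure D1:**
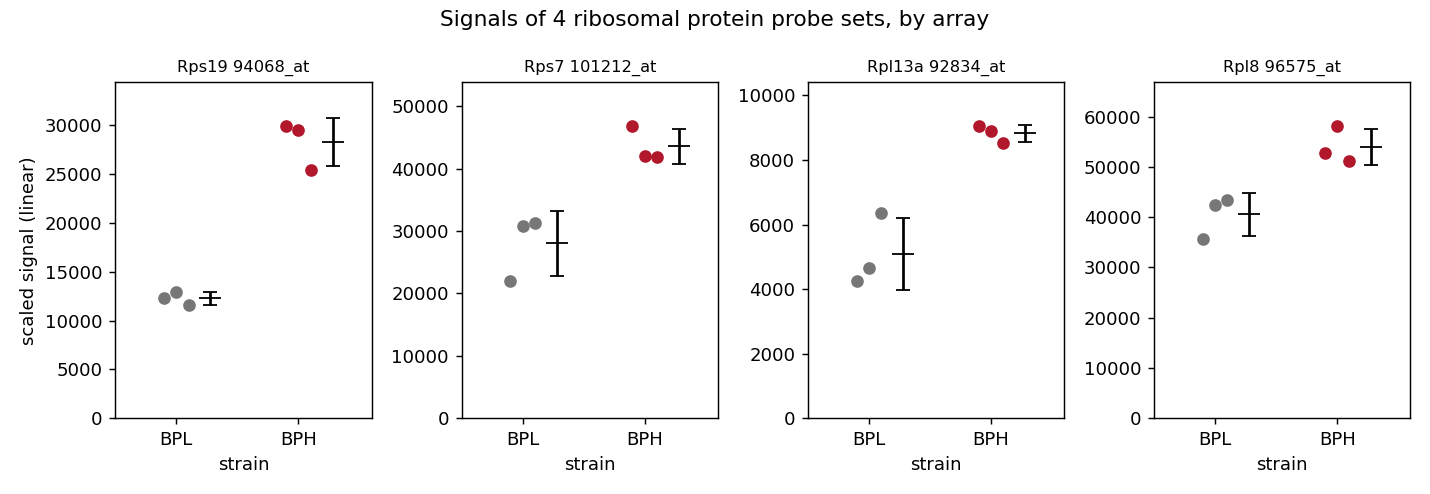
Scaled signals (linear axis from 0) of the probe sets of Rps19, Rps7, Rpl13a and Rpl8 on each BPL array (grey) and BPH array (red), with mean and SD over 3 arrays as bars at the right of each group. In all 4 the BPH arrays lie above the BPL arrays, and the gap is widest for Rps19, at 12273 against 28309.

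The difference of Rps19 was also measured inside each array, against the median log2 signal of the other 19 member probe sets with a mean signal over 10000, a comparison in which a scaling factor per array nearly cancels. It was -1.78, -2.04 and -2.25 in BPL and -1.15, -1.09 and -1.14 in BPH. The 3 BPH arrays were close together and the groups did not overlap, with a difference of 0.90. Over the alternatives run, the log2 difference of Rps19 was between 1.02 and 1.31. It was 1.07 with the authors' own scaling (limma adjusted p = 0.0050) and 1.02 after quantile normalization (limma adjusted p = 0.0075). It passed without each single array in turn, at limma adjusted p from 0.0106 to 0.028. It lost its call with the skeletal muscle covariate (limma adjusted p = 0.21) and without both BPL replicates 1 and 2 (0.0558).

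Rpl13a, Rps7 and Rpl8 came next and did not pass. Rpl13a is a large subunit protein that can leave the ribosome and silence the translation of inflammatory messenger RNAs after interferon. Its signal was 4245, 4651 and 6366 in BPL and 9047, 8894 and 8524 in BPH. The groups did not overlap, and BPL replicate 3 was the highest of its strain. The log2 difference was 0.79 ± 0.18 (limma adjusted p = 0.0502), just over the threshold of 0.05. It passed with the pseudocount doubled (limma adjusted p = 0.0384), with a stricter filter (0.0171), with a trended and robust variance (0.0158) and without BPL replicate 3 (0.0194), and in the other alternatives adjusted p was between 0.0641 and 0.999.

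Rps7, a small subunit protein that also binds the p53 regulator Mdm2, was at 22021, 30758 and 31367 in BPL and at 46825, 41999 and 41931 in BPH. BPL replicate 1 was the lowest array and the groups did not overlap. The log2 difference was 0.65 ± 0.18 (limma adjusted p = 0.0958), and it passed with the stricter filter (limma adjusted p = 0.0418) and with the trended and robust variance (0.0469). Against the other bright members on the same array, Rps7 was at -0.95, -0.80 and -0.84 in BPL and -0.50, -0.59 and -0.42 in BPH. Rpl8, which lies near the site of peptide bond formation, was at 35703, 42488 and 43503 in BPL and at 52694, 58125 and 51223 in BPH, without overlap. Its log2 difference was 0.41 ± 0.16 (limma adjusted p = 0.186).

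The other 26 tested members had log2 differences between -0.42 and 0.39, and limma passed none of them. Rps29, a zinc-binding small subunit protein, had the lowest, at -0.42 ± 0.24, with signals of 2661, 1684 and 2053 in BPL and 1343, 1196 and 2137 in BPH. Rps13, which lies at the contact between the subunits, followed at -0.37 ± 0.24. The groups of both overlapped. At the upper end, Rps3, which guides the messenger RNA into the small subunit, stood at 0.38 ± 0.21, with 27689, 41728 and 44826 in BPL and 53063, 49025 and 44072 in BPH. The probe set annotated Rpl7, which shares its source sequence with a probe set annotated Rps24, was at 0.32 ± 0.15, and Rps10 at 0.29 ± 0.17.

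**Figure D2:**
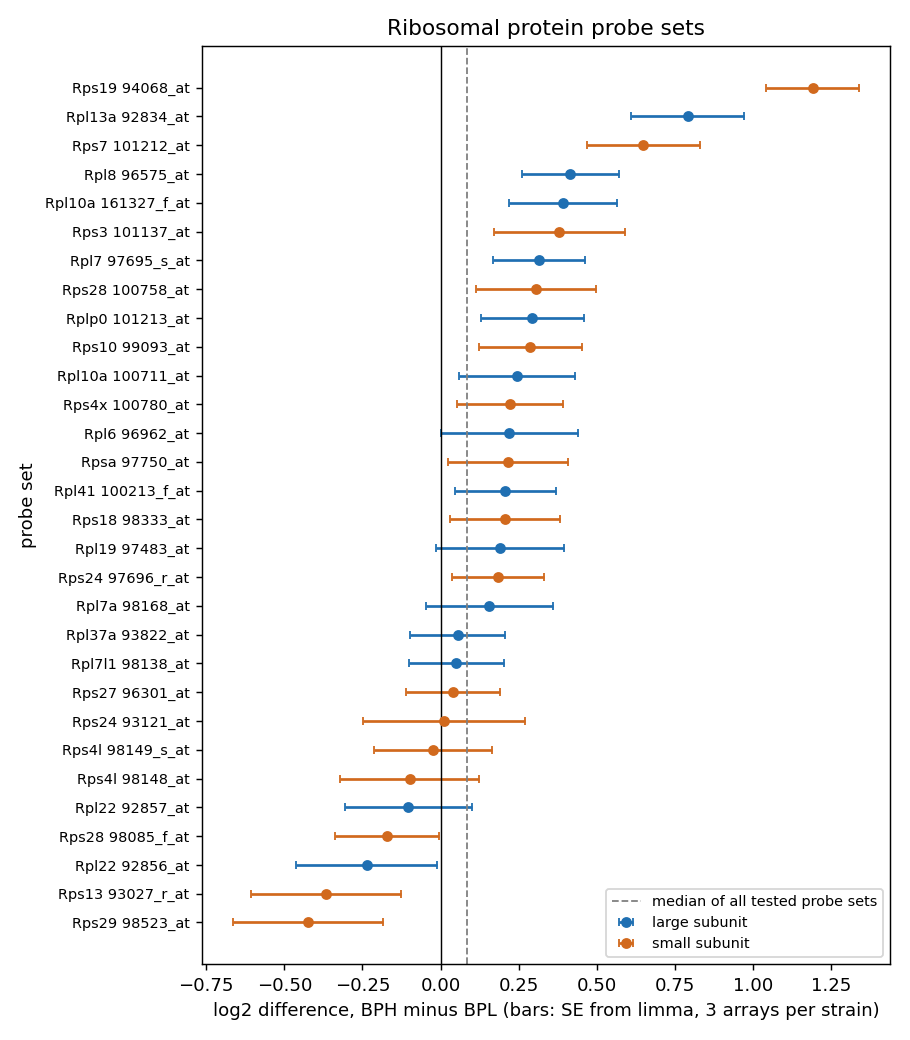
Log2 differences (BPH minus BPL, horizontal axis) of the 30 tested ribosomal protein probe sets in order of size, with SE from limma (3 arrays per strain) as bars, the large subunit in blue and the small subunit in orange. Most points lie between 0 and 0.42 and to the right of the median of all tested probe sets (dashed, 0.08), and Rps19 stands alone at 1.19.

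Rplp0 is the base of the stalk that calls translation factors to the large subunit. Its signal was 61464, 75873 and 78681 in BPL and 94485, 90706 and 78987 in BPH. BPH replicate 3 was barely above the highest BPL array, and the log2 difference was 0.29 ± 0.17 (limma adjusted p = 0.35). Rpsa, a small subunit protein also known as a laminin receptor, was at 11644, 15457 and 15721 in BPL and at 18832, 17293 and 13668 in BPH. The groups overlapped, and the log2 difference was 0.22 ± 0.19 (limma adjusted p = 0.55).

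The paralogues tested were Rps4x, Rps4l and Rpl7l1. Rps4x, the X-linked gene of a small subunit protein, was at 48010, 60272 and 63921 in BPL and 72987, 66188 and 60760 in BPH, a log2 difference of 0.22 ± 0.17 (limma adjusted p = 0.49). Its autosomal relative Rps4l had -0.10 ± 0.22 and -0.02 ± 0.19 on 2 probe sets. Rpl7l1, a relative of Rpl7 with a role in ribosome assembly, had 0.05 ± 0.15. Rpl39l and Rps27l were too dim to be tested, at 265 to 422 and 90.8 to 134.

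Many tested members were lowest on the same array. Each signal was set against its own mean over the 6 arrays on the log2 scale. The median of this deviation over the 30 members was -0.36, -0.03 and 0.03 in BPL replicates 1, 2 and 3 and 0.21, 0.15 and -0.00031 in BPH replicates 1, 2 and 3. BPL replicate 1 was low and BPH replicates 1 and 2 were high, while BPH replicate 3 lay between BPL replicates 2 and 3. BPL replicate 1 was the lowest array for 19 of 30 members and for 2768 of the 7453 tested probe sets. BPH replicate 1 was the highest for 17 members and for 2029 of all.

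Split at a mean signal of 10000, a limit chosen after the values were seen, the 20 brighter members had a median log2 difference of 0.23, and 19 were positive. BPL replicate 1 was lowest for 18 of these 20. All 849 tested probe sets over that limit had a median of 0.17, with 611 positive, and BPL replicate 1 was lowest for 508. The 10 members under the limit had a median of -0.06, with 4 positive, and BPL replicate 1 was lowest for 1 of them and highest for 5. The 18 probe sets too dim to be tested, fitted with no filter, had a median of -0.20, with 3 positive, and limma passed 0. The median difference of the members thus changed sign between bright and dim probe sets. The median of all probe sets also fell as dimmer ones were included. It was 0.17 for the 849, 0.08 for all 7453 tested and 0.01 for all 12422 with no filter. The last value is held near 0 by the scaling, which gives each array the same median over all 12422. The median of the 20 brighter members was 0.12 with the authors' scaling, 0.07 after quantile normalization and 0.06 after cyclic loess. It was 0.11 without BPL replicate 1, 0.10 with the muscle covariate and 0.07 without BPL replicates 1 and 2. In these 6 alternatives 17 to 19 of the 20 were positive, and 46.9% to 57.9% of all tested probe sets. The share among all probe sets over 10000 is given here only for the main processing, so these counts lack a background of like signal.

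**Figure D3:**
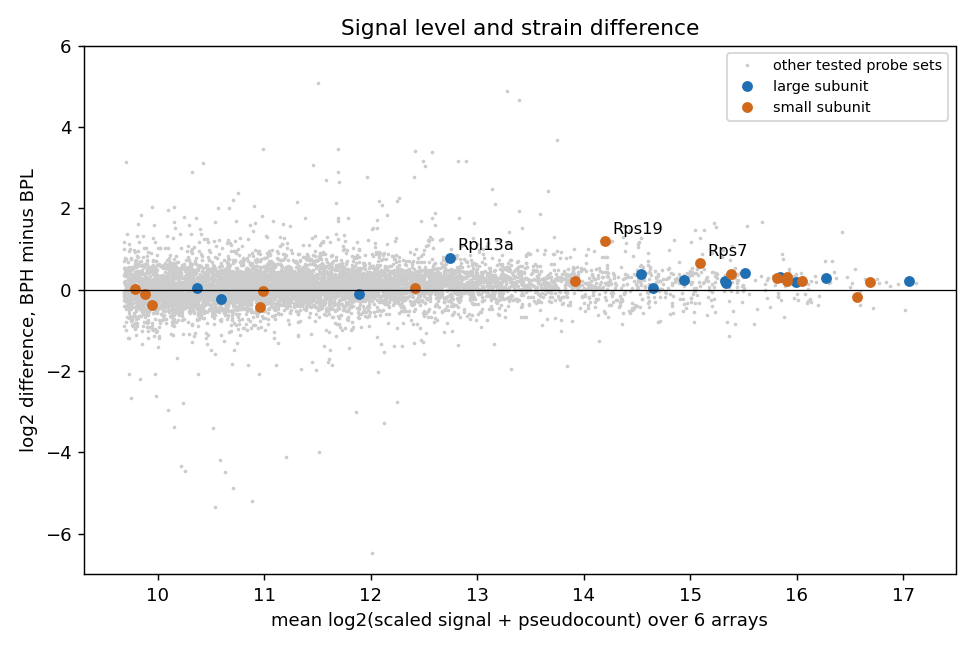
Log2 difference (BPH minus BPL) against the mean log2(scaled signal + 203) over 6 arrays for the 7453 tested probe sets (grey), with the large subunit in blue and the small subunit in orange. The 20 members with mean signals over 10000 form a band at the right with a median of 0.23, and Rps19 lies above it.

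The large and the small subunit did not separate. The 14 large subunit probe sets had a median log2 difference of 0.21, with 12 positive and 0 called by limma. The 16 small subunit probe sets had a median of 0.19, with 11 positive and 1 called, Rps19. The median of all 7453 tested probe sets was 0.08, and 60.5% were positive. All BPH arrays lay above all BPL arrays for 5 large and 4 small subunit probe sets and below for 0, where the background is 19.7% above and 7.97% below. That is 30.0% of the tested members above. Among probe sets with a mean signal over 10000, it was 8 of 20 members (40%) and 255 of all 849 tested (30%).

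On each array, the median deviation of the large subunit minus that of the small subunit was -0.08, -0.05 and 0.01 in BPL replicates 1, 2 and 3 and 0.05, 0.02 and -0.06 in BPH replicates 1, 2 and 3. The groups overlapped. The strain means were -0.04 in BPL and 0.0021 in BPH, and their difference of 0.046 was about as large as the SD within strains, 0.049. Among members over 10000 alone, the same quantity ran from -0.0098 to -0.0043 in BPL and from -0.06 to 0.02 in BPH. No test was made of a value over the members, since they were chosen with earlier results known.

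**Figure D4:**
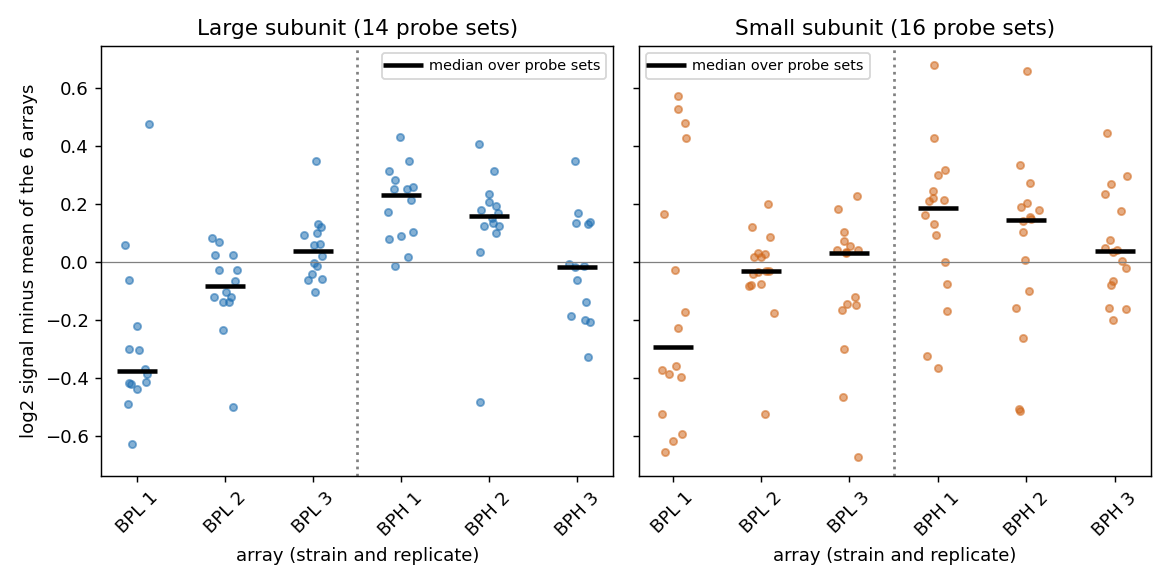
Log2 signal of each tested probe set minus its mean over the 6 arrays, by array, for the large subunit (left, 14 probe sets) and the small subunit (right, 16 probe sets), with the median over probe sets as a black bar. In both panels the median is lowest in BPL replicate 1, at -0.38 and -0.29, and highest in BPH replicate 1, at 0.23 and 0.19.

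The size of the shared shift depended on how the arrays were scaled. With the authors' own scaling the median of all tested probe sets moved by -0.11, and the members had a median of 0.09 against -0.02 for all. After quantile normalization the medians were 0.04 and -0.00014. After cyclic loess normalization, which removes differences that go with the signal level, they were 0.03 and -0.0085. The members thus stood above the median of all tested probe sets by 0.12, 0.11, 0.04 and 0.04 in the 4 scalings. The number of positive members was 23, 19, 20 and 20 of 30, where 60.5%, 46.9%, 50% and 49% of all tested probe sets were positive. These comparisons are with all tested probe sets, not with those of like signal. Over all probe sets, the calls were 237 higher and 69 lower with median scaling, 195 and 99 with the authors' scaling, 182 and 89 after quantile normalization and 195 and 100 after cyclic loess.

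**Figure D5:**
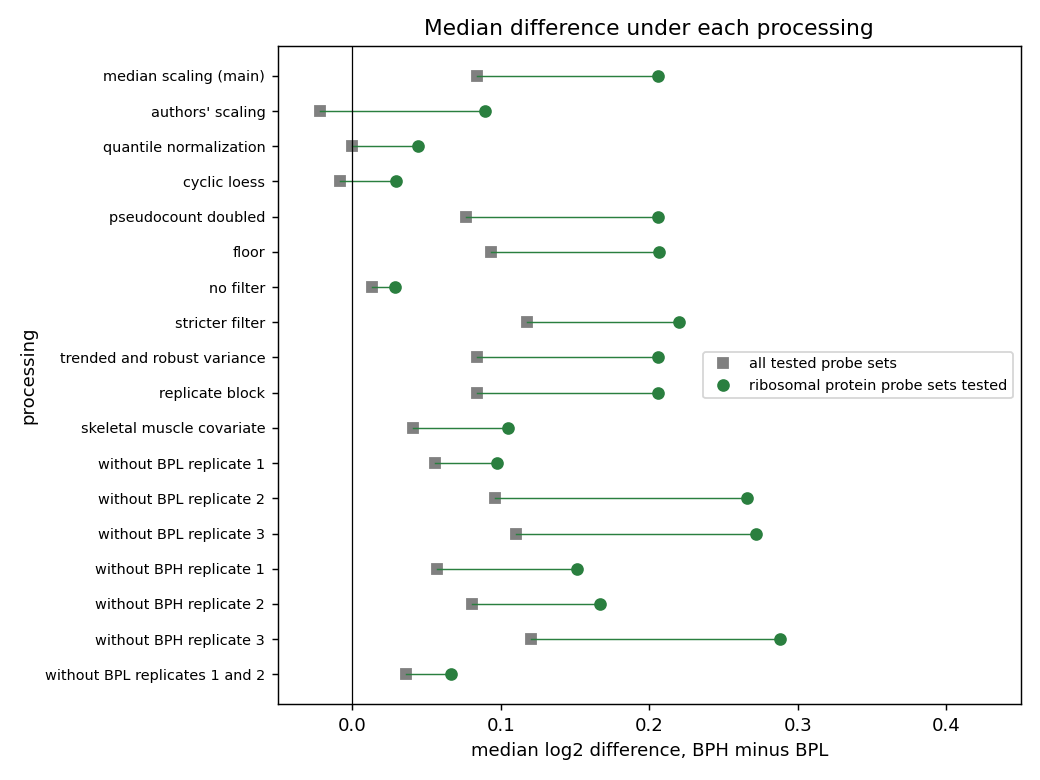
Median log2 difference (BPH minus BPL, horizontal axis) over the ribosomal protein probe sets tested (green circles) and over all tested probe sets (grey squares) under each processing. The members stay to the right of all probe sets under each processing, by 0.12 with median scaling and 0.04 after quantile normalization or cyclic loess.

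BPL replicate 1, the lowest for ribosomal proteins, was also lowest for the sums of cortex, medulla, endothelium and smooth muscle, and red cells. Its skeletal muscle sum, 282819, lay below BPL replicate 2 (674666) and above BPL replicate 3 (64563) and BPH (31834 to 36572). The part of these tissues in the shift of the members was not tested. With BPL replicates 1 and 2 left out, the arrays with the largest muscle sums, the member median was 0.07 and that of all tested probe sets 0.04. Rps19 then differed by 1.26 (limma adjusted p = 0.0558, with 1 BPL array assumed to vary like the others) and lost its call, while 87 probe sets passed in all. The Rps19 signal of BPL replicate 3, the BPL array with the lowest muscle sum, was 11634, the lowest of the 6. That muscle sum, 64563, was still above the 31834 to 36572 of BPH. The part of muscle in the Rps19 difference was not tested. With the mean muscle signal as a covariate, which itself differs between the strains, Rps19 stood at 1.31 and was not called (limma adjusted p = 0.21), and 20 probe sets passed in all. For the Gapdh controls, the log2 ratio of 3′ over 5′ signal, a sign of RNA quality, ran from -0.03 to 0.06 in BPL and from 0.08 to 0.21 in BPH. That of beta-actin ran from 0.79 to 0.90 and from 0.94 to 1.25, and the part of RNA quality in these results was not tested.

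Of the 34 genes, 10 had more than 1 probe set, and their probe sets often disagreed in signal. For Rpl10a the probe sets gave 0.24 ± 0.18 and 0.39 ± 0.17, and for Rpl22, whose product also binds viral RNA, -0.24 ± 0.23 and -0.10 ± 0.20. For Rps24, 1 probe set had signals from 90331 to 117274 and a difference of 0.18 ± 0.15, and the other had signals from 438 to 987 and 0.01 ± 0.26. The annotation gives the brighter one the same source sequence as the tested Rpl7 probe set. Which of the 2 genes, of different subunits, each of these probe sets measures is not settled here. Rps4x had 1 probe set from 48010 to 72987 and 4 too dim to be tested, with no signal over 1459. Rpl19 had 1 at 48631 to 79190 with a difference of 0.19 ± 0.21, and 1 too dim to be tested, at 679, 610 and 1040 in BPL and 391, 414 and 444 in BPH. Rpl7 and Rps29 likewise had 1 tested and 1 dim probe set, and both probe sets of Rpl38 were dim.

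The 2 bright probe sets of Rps28, a small protein near the messenger RNA exit of the small subunit, pointed opposite ways, and neither passed. The first was at 42691, 59662 and 66093 in BPL and at 71700, 70182 and 63324 in BPH, a log2 difference of 0.31 ± 0.19 (limma adjusted p = 0.40). The second, whose identifier marks probes shared within a gene family, was at 85975, 111200 and 113278 in BPL and at 96719, 90339 and 86542 in BPH, a difference of -0.17 ± 0.17 (limma adjusted p = 0.58). Within each array, against the other bright members, this family probe set was at 1.26, 1.35 and 1.33 in BPL and 0.86, 0.63 and 0.75 in BPH, without overlap. The first Rps28 probe set stood at 0.26, 0.45 and 0.56 and at 0.43, 0.27 and 0.30, with overlap. Another Rps28 probe set was too dim to be tested.

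Against the other bright members on the same array, 5 of 20 probe sets had groups that did not overlap, 2 higher and 3 lower in BPH. Of the other 829 tested probe sets over the same signal, set against the same members, 11.5% lay wholly above and 38.2% wholly below, 49.7% in all. This share cannot serve as a background for the members' 5 of 20. The reference is the members' own median, near which members that shift together stay. Rps19 and Rps7 were higher in BPH, by 0.90 and 0.36. Lower in BPH were the family probe set of Rps28, by -0.56, the bright probe set annotated Rps24, whose gene is not settled, by -0.21, and Rpl41, on a probe set also marked as shared within a family, by -0.18. Rpl41 encodes a very small large subunit protein, and its relative value was 1.62, 1.61 and 1.62 in BPL and 1.45, 1.46 and 1.39 in BPH. These 5 were singled out once their values were known, and no test was made of the relative values.

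The other genes of the translation machinery were called at shares near or below the 4.11% of all tested probe sets. Of all tested probe sets, 60.5% had a positive difference. Rps3a1, a small subunit protein that the naming rule leaves out, was at 45542, 57582 and 60189 in BPL and 73348, 64372 and 60422 in BPH, which is 0.28 ± 0.17 on the log2 scale and did not pass (limma adjusted p = 0.38). Fau, the gene of a small subunit protein fused to a ubiquitin-like protein, was too dim to be tested, at 392 to 587. Of 20 tested probe sets for elongation factors and other messenger RNAs with the TOP motif, 18 were positive and 0 were called by limma, with a median of 0.17. Among them the translocation factor Eef2 had 0.36 ± 0.18, at 26054, 32333 and 32988 in BPL and 40787, 44656 and 32669 in BPH. The tested probe sets of Eif2s3x, Eif3e, Eif3f, Eif3k, Eif3l and Eif4b are in both that list and the list of initiation factors. Of 41 probe sets of initiation factors and related genes, 31 were positive and 1 was called. The called one was for Eif2s2, a subunit of the factor that brings the initiator tRNA. This probe set rose by 0.75 ± 0.17 (limma adjusted p = 0.0438), while a second for the same gene stood at 0.30 ± 0.21. The first lost its call in 13 of 16 alternatives, among them the removal of any single array, with differences from 0.65 to 0.86.

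Of 48 probe sets of ribosome biogenesis genes, 39 were positive and 2 rose, with a median of 0.24. These were Nop10, a part of the particles that make pseudouridine in ribosomal RNA, by 0.80 ± 0.16 (limma adjusted p = 0.034), and Nop58, a core protein of the particles that methylate it, by 0.77 ± 0.17 on a probe set marked as shared within a gene family (limma adjusted p = 0.043). Each lost its call in 12 of 17 alternatives, Nop10 without any single array (0.63 to 0.88 over the alternatives) and Nop58 without any but BPL replicate 3 (0.38 to 0.90). Of 68 probe sets of mitochondrial ribosomal proteins, which belong to a separate ribosome, 33 were positive and 1 fell, with a median of -0.0046. It was that of Mrpl3, at 6410, 5350 and 5926 in BPL and 3267, 3303 and 3224 in BPH, a log2 difference of -0.81 ± 0.15 (limma adjusted p = 0.022). This call was lost in 9 of 17 alternatives, among them without any array but BPL replicate 3, at -0.94 to -0.75. Of 19 probe sets of growth signalling to translation, 1 was called, for Ddit4, an inhibitor of mTOR induced by stress, at 2038, 3084 and 1808 in BPL and 5950, 7849 and 6453 in BPH (1.49 ± 0.22, limma adjusted p = 0.0081). Ddit4 kept its call in 16 of 17 alternatives, all but the muscle covariate. The 2 probe sets of Mtor had -0.68 ± 0.18 and -0.38 ± 0.19 and did not pass, though the first did in 2 alternatives.

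The 35 tested probe sets that carry several symbols including a ribosomal protein gene, which cannot be assigned to 1 gene, had a median log2 difference of 0.29. Of these, 31 were positive, 0 were called higher and 1 was called lower by limma, and differences ran from -1.16 to 1.70.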

How the data were processed

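Total adrenal RNA of BPH and BPL mice (3 arrays each) was made into biotinylated cRNA for Affymetrix arrays, per the labels. The authors deposited linear signal intensities, 1 value for each probe set on each array. The submitters' processing notes name MAS5, and no version or setting is given in the sources used. Trimmed means (2% off each end) were 2501.34 to 2501.53. Of 12422 probe sets that are not controls, 10833 have 1 symbol in the annotation.

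Arrays were brought to a common median (1040, from 945 to 1144 before), and log2(signal + 203) was taken, 203 being the 20th percentile of all signals. Probe sets in the lowest 40% by mean log2 signal were not tested. limma 3.58.1 in R 4.3.3 compared BPH with BPL over 7453 probe sets (lmFit, eBayes, 2-sided, 4 residual and 4.50 prior degrees of freedom, Benjamini-Hochberg threshold 0.05). The model was tested on simulated data. Printed signals are scaled.

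Members and lists were chosen with earlier results of these data known. Named genes were the called members, the 6 largest differences of each sign per subunit, genes with several probe sets, Rplp0, Rpsa, paralogues, up to 4 called genes per other list, and Fau and Eef2; Gnb2l1 was not measured by a single-symbol probe set, and 1 further gene is not reported here. Rps4l, also written into a list outside the rule, was counted as a member only. Alternatives were other scalings, pseudocounts, filters, variance models, a replicate block, a muscle covariate and arrays left out.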

Additional observations from a re-analysis of the deposited data

How the results depend on the processing

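Rps19 kept its direction in all alternatives run and its call in all but 2, the muscle covariate and the removal of BPL replicates 1 and 2. Over the 30 tested members, 505 values were recomputed, of which 497 kept their side of the threshold, 6 gained a call (4 for Rpl13a, 2 for Rps7) and 2 lost one. Uncalled values changed sign 31 times, in 9 probe sets. The number of members called higher was 2 with the pseudocount doubled, 3 with the stricter filter (lowest 60% left out), 3 with a trended and robust variance, and 0 with the muscle covariate or without BPL replicates 1 and 2, and 0 were called lower by limma in any of them. The small subunit median was 0.034 after quantile normalization, 0.027 after cyclic loess and -0.0060 with no filter, and the median of all members was 0.030 after cyclic loess and 0.029 with no filter, where 48 members were fitted. Over all probe sets 127 passed with no filter, 20 with the muscle covariate and 87 without BPL replicates 1 and 2. The large minus small subunit difference was -0.050 with the covariate. With each array left out in turn, 101 to 375 probe sets passed in all (158, 144 and 375 without BPL replicates 1, 2 and 3, and 129, 101 and 181 without BPH replicates 1, 2 and 3), 1 to 2 members were called higher and 0 lower by limma. Medians then ran from 0.10 (without BPL replicate 1) to 0.29 (without BPH replicate 3) for all members, from 0.09 to 0.32 for the large and from 0.10 to 0.29 for the small subunit, and the difference between subunits from -0.01 to 0.05. The cause of these changes was not tested. The replicate numbers did not pair the arrays: deviations of same-numbered arrays correlated at -0.06, -0.05 and -0.18, and 0 of 6 arrays correlated best with their own number. With the replicate block 239 probe sets passed, and 1 member, Rps19 (1.19, limma adjusted p = 0.0161), was called higher. The median over 1 value per gene was 0.21. Without the 3 tested members whose source sequence the annotation also gives to another gene, an alternative chosen after seeing the data, the large and small subunit medians were 0.21 and 0.21. Detection calls were not used here, so signal over background limits the dim members.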
